A study of Mus musculus with 27 samples.

Results

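The 9 genes described here encode enzymes of glycolysis or of its hormonal control: Pfkl, Pfkfb1, Pfkfb3, Gapdh, Pgk1, Eno1, Pklr, Pkm and Ldha. They were picked by gene symbol out of a table of 45706 genes of mouse liver RNA, and each symbol stood for 1 row. All 9 passed the filter on low values, which kept 15932 genes. The study measured messenger RNA in 27 liver libraries. Every mouse was wild type, of the strain spelled C57/BLN6 in the labels, and had been without food for 16 h. The fasted group was taken then. Refed groups were given food for 30, 60, 120 or 240 min. Caged food groups had food in a cage for the same 4 times, a setting used to let mice sense food without eating it. Each of the 9 groups had 3 libraries, which the design text calls biological replicates. Age, sex and pooling are not given in the sources used here.

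Glycolysis splits glucose into pyruvate, which is burned in mitochondria, turned into fat precursors or reduced to lactate. In the liver the pathway runs forward after a meal and is opposed by gluconeogenesis during a fast, when the liver exports glucose. Liver uses its own isoenzymes at the controlled steps, among them the liver pyruvate kinase, and insulin and glucose raise the transcription of several of them.

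Values are read counts that the authors scaled to a common level and rounded, called normalised counts below. Library totals ran from 40654573 to 50037562 normalised counts, with 19790 to 21068 genes above 0. The depth estimated from the spacing of low values was 25500000 to 52500000 reads a library. Of 8 hepatocyte markers, 7 were in the table and summed to between 3572653 and 6348909 in every library, so the livers carried the RNA of their labelled tissue. At 240 min, refed replicate 3 and caged food replicate 1 have titles and treatment labels that name opposite groups. A score of 200 genes, positive towards refed, was 0.493 and -0.634 in these libraries, on the side of their titles. Other 240 min libraries scored 0.569 and 0.766 (refed) and -0.611 and -0.582 (caged food). They were grouped by title, and values at 240 min include them unless stated. Against fasted livers, 24.3% of all genes tested were called at 240 min of refeeding, 20.7% without these libraries and 0% when they were grouped by treatment label. Another 3 libraries stood apart. Refed 30 min replicate 1 held 5805 summed counts of 10 pancreas markers against at most 674 elsewhere, with Amy2a5 at 0 throughout. Caged food 60 min replicate 2 held 33559 summed counts of 8 macrophage and Kupffer cell markers, against at most 21529 elsewhere. Caged food 30 min replicate 1 held 30245 of 8 endothelial markers, against at most 24649 elsewhere.

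Differences below are of log2(normalised count + 1), with a standard error from limma, and a gene is called at an adjusted p under 0.05 over all genes tested. Pfkfb3, Pklr and Gapdh were called higher in refed than in caged food livers averaged over the 4 times. Against fasted livers, Pfkfb3 rose at 60, 120 and 240 min of refeeding, Pklr at 240 min and Gapdh at 30 and 60 min. Pfkfb1 was called in caged food livers at 60 min, a call lost on leaving out any 1 of the 6 libraries compared. Pgk1, Eno1, Ldha, Pkm and Pfkl were called in no comparison with all libraries kept. Over the 9 groups, 4 of the 9 genes were called by an F test, where 34.8% of all genes tested were called.

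The stretches before the start sites of the 3 genes called higher in refed livers are shown to place the sequence elements that glycolysis genes are known for. They come from RefSeq, build GRCm38.p6, in which all 9 genes had an entry, and run 5′ to 3′ on the strand of the gene. Pklr and Pfkfb3 have 2 RefSeq start sites each, and the window of 1 is printed for each, chosen because it holds the elements. The other Pklr window held no carbohydrate response element, and the other Pfkfb3 window no CACGTG. The last 51 bases of the Pklr window and 11 of the Pfkfb3 window lie in annotated exons and were left out. Each printed stretch ends directly before an annotated GENCODE transcript start and lies in an intron of a longer transcript of the same gene. For 13 of the 18 RefSeq start sites of the 9 genes, bases just after the start were found in a GENCODE transcript of the gene. The printed Pfkfb3 and Gapdh sites were among these, and the printed Pklr site was not. Capitals mark matches to CACGTG (the E-box), ACGTG (the core of the hypoxia response element), GGGCGG (the GC box), TATAAA (the TATA box) and the carbohydrate response element consensus. Both strands were searched, so CCGCCC marks a GC box on the other strand, and every CACGTG also holds ACGTG. Pklr covers chr3:89136373-89136571 (plus strand), Pfkfb3 chr2:11502102-11502340 (minus strand) and Gapdh chr6:125165774-125166023 (minus strand).
Pklr: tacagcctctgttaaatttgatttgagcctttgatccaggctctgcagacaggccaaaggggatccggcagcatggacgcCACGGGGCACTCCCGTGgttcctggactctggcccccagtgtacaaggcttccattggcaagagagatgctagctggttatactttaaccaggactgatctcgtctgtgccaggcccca
Pfkfb3: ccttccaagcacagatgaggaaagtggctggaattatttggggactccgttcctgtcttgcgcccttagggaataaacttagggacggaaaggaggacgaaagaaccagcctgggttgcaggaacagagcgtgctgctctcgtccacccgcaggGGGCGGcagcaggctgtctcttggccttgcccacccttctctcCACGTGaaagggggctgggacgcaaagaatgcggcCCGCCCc
Gapdh: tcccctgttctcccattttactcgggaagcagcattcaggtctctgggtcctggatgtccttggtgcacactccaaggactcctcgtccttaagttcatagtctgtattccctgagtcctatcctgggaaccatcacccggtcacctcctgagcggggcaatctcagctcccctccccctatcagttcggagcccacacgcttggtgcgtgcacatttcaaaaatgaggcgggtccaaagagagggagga

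The Pklr stretch held the carbohydrate response element consensus, the sequence bound by ChREBP and MLX, at -170 to -154 from the RefSeq start. That consensus occurred in 32 of 32851 promoter windows of 250 bases (0.0974%), and among the 9 genes in Pklr alone. The Pfkfb3 stretch held a CACGTG at -53 to -48, a motif present in 6.02% of all windows, and GC boxes on both strands, a motif present in 32.7%. Of the other genes, Ldha had 2 CACGTG in 1 of its windows, and Pgk1 had 2 ACGTG and Pkm 1 (16.6% of all windows). GC boxes were also found in windows of Pgk1, Eno1, Ldha, Pkm and Pfkfb1, and a TATAAA in a window of Pfkfb1. None of these letters was found in the Gapdh stretch, and the printed stretches hold no TATAAA (12.4% of all windows). The Pklr window has a TATAAA at -31 to -26, within the bases left out. A match is a description of the sequence and not a bound site.

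The amount of transcript differed widely among the 9 genes. Per kb of exons, the median over 27 libraries was 12667.7 normalised counts for Ldha, lactate dehydrogenase A, which was the highest of the 9 in every group. Eno1, an enolase, followed at 738 and Pklr, the liver pyruvate kinase, at 661. These neighbours in the order overlapped, since Eno1 spanned 659 to 830 and Pklr 428 to 1353.8. Pfkfb1 (381), Pfkl (244) and Pgk1 (208) came next. Pfkfb3, Pkm and Gapdh had medians of 93.8, 84.8 and 82.7 per kb, with ranges that overlapped one another.

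**Figure D1:**
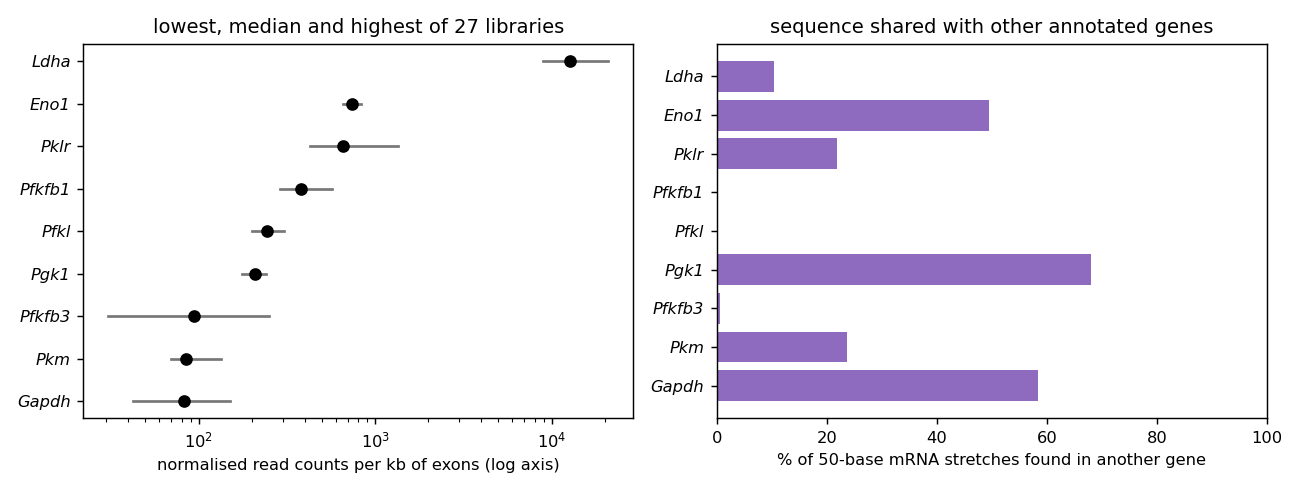
Left, normalised read counts per kb of exons (log axis) for the 9 genes, with the lowest, median and highest of 27 libraries. Right, the share of 50-base stretches of each gene's mRNAs that also occur in another annotated gene. Gapdh, lowest by median on the left, shares 58.4% of its stretches, and Pgk1 shares 68.0%.

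Levels of Gapdh, Pgk1 and Eno1 are uncertain, because much of their mRNA sequence also occurs in other annotated genes. Of the 50-base stretches in Gapdh mRNAs, 58.4% also occurred in another annotated gene, and 213 of the 222 genes concerned were pseudogenes. The share was 68.0% for Pgk1, with 5 pseudogenes, and 49.5% for Eno1, with 8 pseudogenes among 9 genes. Summed, the mean normalised counts of these other genes were 2360 for Gapdh, 0.037 for Pgk1 and 3.33 for Eno1. These sums take the whole count of every gene that shares any stretch, however small the shared part. Pkm shared 23.7% and Ldha 10.4%. With stretches of 100 bases the shares were 53.1% for Gapdh, 67.0% for Pgk1, 39.5% for Eno1, 7.52% for Pkm and 0.746% for Ldha. The summed counts of the other genes were then 232 for Gapdh, 0.037 for Pgk1 and 2.3 for Eno1. Pklr shared 21.8%, all of it with Hcn3, an overlapping gene that averaged 52.6 normalised counts. Pfkfb3 (0.53%), Pfkfb1 (0.137%) and Pfkl (0.0532%) shared almost none of their sequence. How reads matching several genes were counted is not given in the sources used here, and the part this plays in the low Gapdh level was not tested. In fasted livers Gapdh averaged 314 ± 48.2 normalised counts (SD, n = 3). Tpi1, the enzyme just before it in the pathway, averaged 17425.3 there and shares 6.83% (0.721% at 100 bases). Eno1, at 49.5%, averaged 4278.7, and Pkm, at 23.7%, averaged 428. Whether level goes with sharing was not tested.

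**Figure D2:**
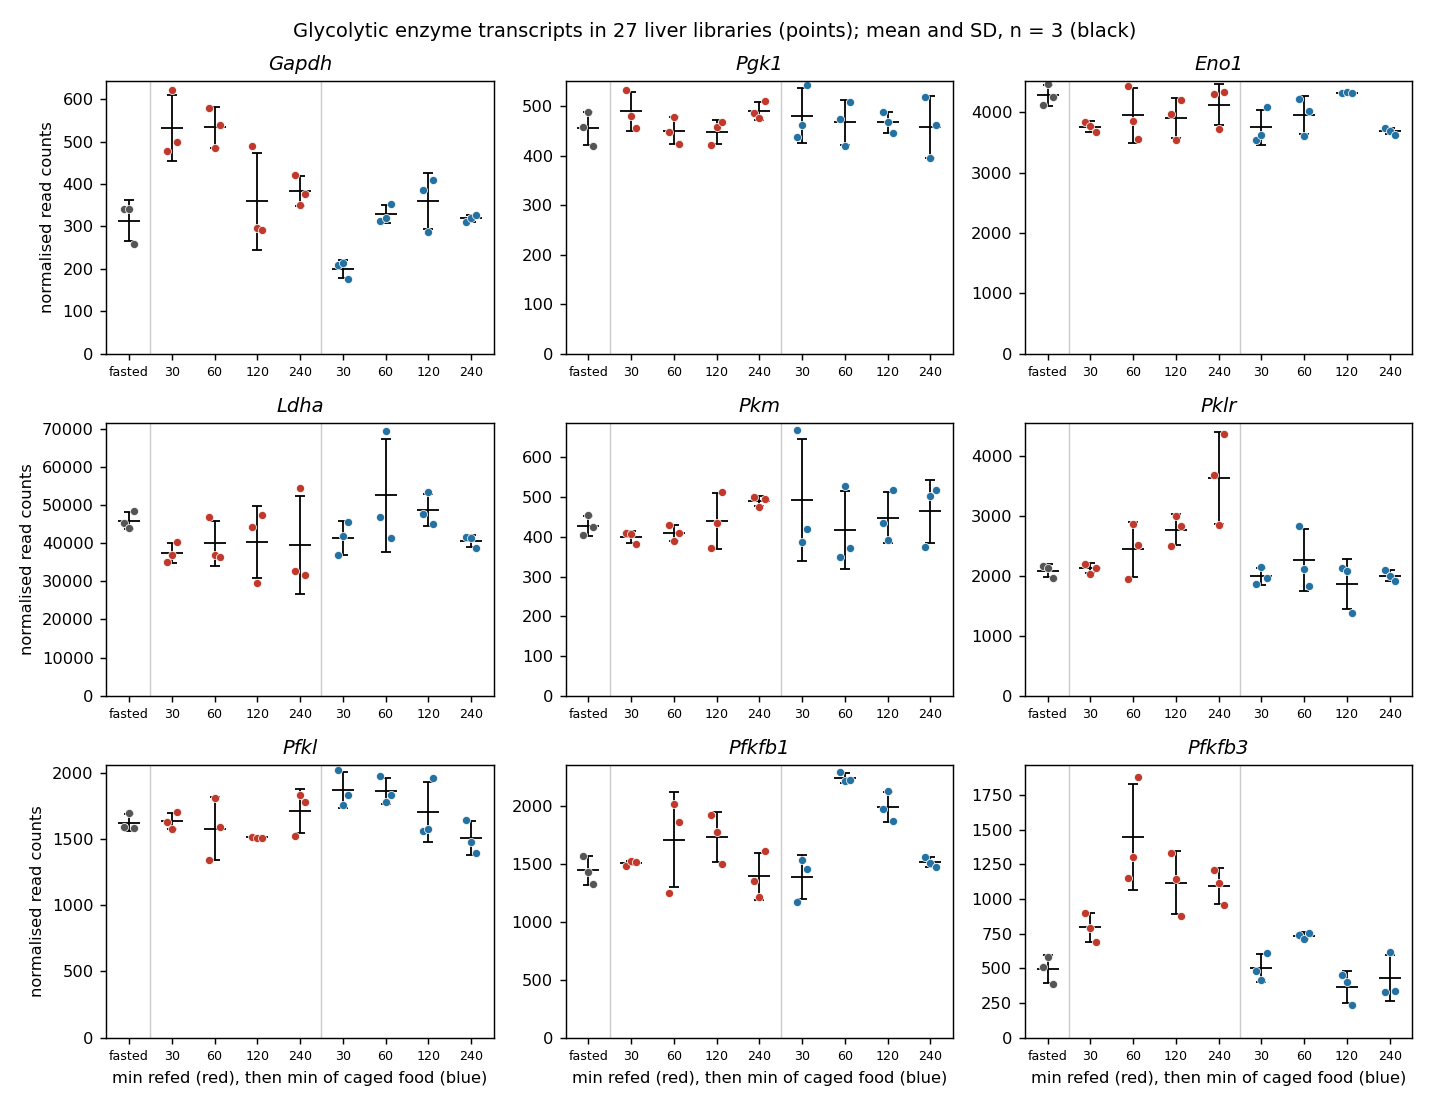
Normalised read counts of the 9 genes in each of 27 libraries (points), with the mean and SD of 3 libraries (black), for fasted livers (grey) and for livers refed (red) or given caged food (blue) for 30 to 240 min. Pfkfb3 lies between 881 and 1883 in refed livers from 60 min on and between 233 and 755 in caged food livers.

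Phosphofructokinase makes the committed step of glycolysis, and the bifunctional PFKFB enzymes set the level of fructose 2,6-bisphosphate, its strongest activator. PFKFB1 is the liver form, whose kinase is switched off by glucagon through phosphorylation. PFKFB3 has a high kinase activity and is known from proliferating and inflamed cells.

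Pfkfb3 held 510, 584 and 386 normalised counts in the 3 fasted livers. At 30 min of refeeding it held 903, 792 and 691, and at 60 min 1155, 1303 and 1883. It then held 1335, 1142 and 881 at 120 min and 1213, 1116 and 956 at 240 min. Every refed liver lay above every fasted liver, and the 60 min group had the highest mean, 1447 ± 385 (SD, n = 3).

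In caged food livers Pfkfb3 held 481, 413 and 610 at 30 min and 742, 709 and 755 at 60 min. It held 455, 402 and 233 at 120 min and 333, 620 and 339 at 240 min. Within each time, refed and caged food livers did not overlap. The 60 min caged food livers were the highest of their series and lay above all fasted livers. Among the 4 caged food times Pfkfb3 was not called (limma F test, adjusted p = 0.057). It was called there without caged food 120 min replicate 1 (adjusted p = 0.0427) or caged food 240 min replicate 2 (0.0171).

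Against fasted livers, Pfkfb3 rose by a log2 difference of 1.54 ± 0.24 (SE; 2.91-fold) at 60 min (limma adjusted p = 1.45e-04). The rise was 1.18 ± 0.24 at 120 min (adjusted p = 0.00179) and 1.16 ± 0.24 at 240 min (adjusted p = 0.00114). At 30 min the difference of 0.70 ± 0.24 was not called (adjusted p = 0.202), although the groups did not overlap. Fewer cells of a type and less RNA per cell cannot be told apart in whole liver, here or below. A caged food difference of 0.60 at 60 min was not called (adjusted p = 0.389), nor were those at 30, 120 and 240 min (0.03, -0.48 and -0.24). Both sets of comparisons use the same 3 fasted livers.

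Compared directly, refed livers held more Pfkfb3 than caged food livers by 0.94 ± 0.24 at 60 min, 1.66 ± 0.24 at 120 min and 1.4 ± 0.24 at 240 min (limma adjusted p = 0.0129, 7.38e-05 and 1.53e-04). The 60 min call was lost without refed 60 min replicate 3 (0.74, adjusted p = 0.0841). At 30 min the difference of 0.67 was not called (adjusted p = 0.436). Averaged over the 4 times the difference was 1.17 ± 0.12, a 2.25-fold higher level (adjusted p = 1.26e-07). No test showed that the difference varied over time (adjusted p = 0.180). Without the 2 libraries of conflicting labels, the 240 min differences were 1.26 from fasted and 1.34 from caged food livers, both called. With these libraries moved to the group of their treatment label, the differences were 0.66 and 0.39 and neither was called (adjusted p = 0.397 and 0.809).

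Summed macrophage and Kupffer cell markers, a cell class in which Pfkfb3 is also expressed, ran from 13275 to 16546 in fasted, 12098 to 21529 in refed and 12199 to 33559 in caged food livers. None of the 8 markers was called by limma against fasted livers in any of the 8 groups, and 0 had an unadjusted p under 0.05. Their part in the Pfkfb3 result was not tested. Summed endothelial markers were lower in refed livers at 240 min (17833 to 18439) than in fasted livers (19649 to 22827), with Oit3 and Kdr called of 8. Stellate cell markers were lower too, at 16134 to 20631 against 23223 to 24733, with Ecm1 and Reln called of 8. Their sums also lay below all fasted livers at 30 min (17611 to 22468) and 120 min (17203 to 22215) of refeeding and at 120 min of caged food (19024 to 21808). Against caged food livers at 240 min, the endothelial Oit3, Fcgr2b and Kdr were called lower and the cholangiocyte markers Sox9 and Krt19, of 7 tested, higher. At 240 min 24.3% of all genes tested were called against fasted livers, a share near 2 of 8, and 27% against caged food livers. Only Reln and Krt19 of these markers were called without the 2 libraries of conflicting labels, both against fasted livers, and Krt19 also against caged food livers. Without these libraries the shares of all genes were 20.7% and 19.7%. The part of these cells in the results was not tested.

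Pfkfb1 held 1571, 1432 and 1324 normalised counts in fasted livers. At 60 min of caged food it held 2294, 2218 and 2219, and at 120 min 1973, 2129 and 1865. At 30 and 240 min of caged food it ranged from 1170 to 1561. The 60 and 120 min caged food livers lay above all fasted livers, and the rest overlapped them.

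The Pfkfb1 difference from fasted livers at 60 min of caged food was 0.64 ± 0.14 (1.56-fold, limma adjusted p = 0.0467). It was the only one of the 9 genes called there, where 0.22% of all genes tested were called. Leaving out any 1 of the 6 libraries took the adjusted p to between 0.0547 and 0.292, while the difference stayed between 0.58 and 0.70. At 120 min the difference was 0.46 (adjusted p = 0.289). An F test over the 4 caged food times called Pfkfb1 (adjusted p = 0.0106), and Gapdh as the other of the 2 genes called, beside 2.32% of all genes tested. Without the 3 libraries that stood apart, neither was called (adjusted p = 0.069 and 0.0666). Gapdh was also lost there without caged food 30 min replicate 3 (adjusted p = 0.0885).

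Refed livers held 1213 to 2016 counts of Pfkfb1, and no refed time was called against fasted livers. The spread was widest at 60 min, where the libraries held 1245, 2016 and 1863. Without refed 60 min replicate 1, the lowest of these, Pfkfb1 was called at 60 min against fasted livers (0.43, adjusted p = 0.0203) and among the 4 refed times (F test, adjusted p = 0.012). At that time refed livers were lower than caged food livers by -0.42 ± 0.14 (adjusted p = 0.0455). That call was lost without refed 60 min replicate 1 (-0.21, adjusted p = 0.328) or without any of the 3 caged food libraries (adjusted p = 0.0797 to 0.115). Averaged over the 4 times the difference was -0.16 and was not called (adjusted p = 0.0829). It was called without refed 60 min replicate 2 (adjusted p = 0.0295), refed 240 min replicate 3 (0.0402) or caged food 30 min replicate 1 (0.0366).

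The balance of the isoenzyme transcripts differed between refed and caged food livers. Per kb of exons, Pfkfb1 made up 84.7% ± 2.26 (SD, n = 3) of the sum of Pfkfb1 and Pfkfb3 in fasted livers. Its share was 68.8% ± 4.95 at 60 min and 70.3% ± 4.98 at 240 min of refeeding, against 85.2% ± 0.421 and 87.0% ± 4.29 with caged food. The log2 ratio of Pfkfb3 to Pfkfb1 was higher in refed livers by 0.54, 1.37, 1.86 and 1.53 at 30, 60, 120 and 240 min. The mean of these, 1.33, gave p = 1.25e-05 in an exact two-sided permutation test over 160000 arrangements within times, the smallest value it can give (adjusted over 2 ratios, 2.50e-05).

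**Figure D3:**
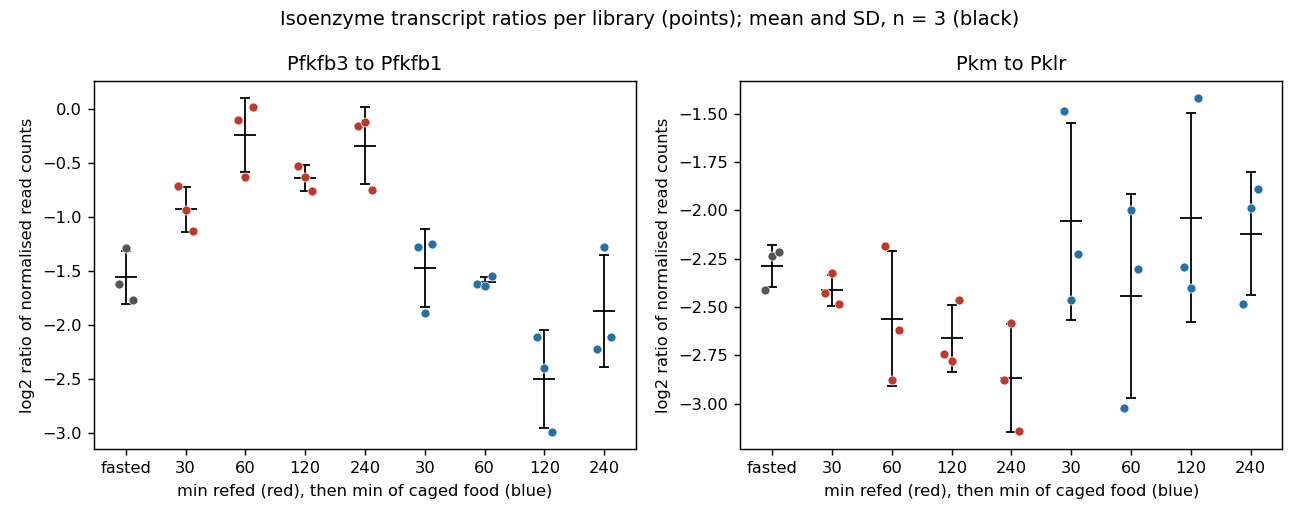
Log2 ratios of normalised read counts, Pfkfb3 to Pfkfb1 (left) and Pkm to Pklr (right), in each library (points), with the mean and SD of 3 libraries (black). The left ratio lies near -1.56 in fasted livers and reaches a mean of -0.24 at 60 min of refeeding, against -1.61 with caged food at that time.

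Pfkl encodes the liver subunit of phosphofructokinase itself. It held 1585 to 1697 normalised counts in fasted, 1340 to 1832 in refed and 1394 to 2024 in caged food livers. No comparison called it with all libraries kept. Its widest difference between refed and caged food livers was -0.25 at 60 min (95% interval -0.45 to -0.04, adjusted p = 0.119). Without refed 60 min replicate 2 that difference was called (-0.35, adjusted p = 0.032). The F test over the 9 groups called Pfkl without refed 60 min replicate 1 or 2 or caged food 120 min replicate 3 (adjusted p = 0.0473, 0.0281 and 0.0407).

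Pyruvate kinase makes the last step, and Pklr encodes the form of liver and red blood cells. Pklr held 2160, 2140 and 1973 normalised counts in fasted livers. At 30 min of refeeding it held 2208, 2040 and 2138, at 60 min 1953, 2864 and 2519, and at 120 min 2494, 2996 and 2830. At 240 min it held 3687, 2854 and 4381. All 120 and 240 min refed livers lay above all fasted livers, and the 30 and 60 min groups overlapped them.

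Caged food livers held 1841 to 2839 counts of Pklr at 30 and 60 min, 2133, 2077 and 1384 at 120 min and 2098, 1996 and 1922 at 240 min. All of these groups overlapped the fasted group, and none was called against it, with differences between -0.19 and 0.09.

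Pklr was higher than in fasted livers by 0.78 ± 0.17 (1.72-fold, limma adjusted p = 0.00120) at 240 min of refeeding. Differences of 0.03, 0.21 and 0.40 at 30, 60 and 120 min were not called (adjusted p = 0.978, 0.510 and 0.109). Against caged food livers it was higher by 0.60 ± 0.17 at 120 min (adjusted p = 0.0197) and 0.84 ± 0.17 at 240 min (adjusted p = 5.15e-04). The 120 min call was lost without refed 120 min replicate 2 (adjusted p = 0.0874), refed 120 min replicate 3 (0.0621) or caged food 120 min replicate 3 (0.39, adjusted p = 0.146). Without the 2 libraries of conflicting labels, the 240 min differences were 0.63 from fasted and 0.73 from caged food livers, both called. Grouped by treatment label they were 0.42 and 0.13, neither called (adjusted p = 0.395 and 0.906).

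The level of Pklr differed among the 4 refed times (F test, adjusted p = 0.00786), but not without refed 240 min replicate 3, its highest library (adjusted p = 0.0541). Averaged over times, refed livers exceeded caged food livers by 0.41 ± 0.08 (adjusted p = 4.66e-04), or by 0.23 when grouped by treatment label (adjusted p = 0.224). Erythroid markers, the other cell class with Pklr, summed to 6513 to 9408 in fasted livers and 6041 to 8190 at 240 min of refeeding. Of 7 tested, Klf1 was called lower there, beside 24.3% of all genes tested.

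Pkm encodes the pyruvate kinase of muscle and other tissues. It held 405 to 454 normalised counts in fasted, 372 to 512 in refed and 348 to 669 in caged food livers, and no comparison called it. Averaged over times, its refed minus caged food difference was -0.05 (95% interval -0.23 to 0.13). Its highest library, caged food 30 min replicate 1, was also the one with the most endothelial markers.

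Pklr accounted for 86.0% to 91.8% of the sum of Pklr and Pkm per kb in the 9 group means. In refed livers the log2 ratio of Pkm to Pklr was lower by -0.36, -0.12, -0.63 and -0.75 at the 4 times, a mean of -0.46 (exact two-sided permutation p = 0.00728, also after adjustment over 2 ratios). Without the 3 libraries that stood apart it was -0.33 (exact p = 0.0423). With the 2 libraries of conflicting labels moved to the group of their treatment label it was -0.35 (exact p = 0.0504).

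Gapdh makes the step that yields NADH, and is often used as a reference gene because its level is taken to be steady. In fasted livers it held 342, 341 and 258 normalised counts. At 30 min of refeeding it held 478, 621 and 499, and at 60 min 580, 484 and 539. It held 490, 296 and 291 at 120 min and 421, 351 and 377 at 240 min. All 30, 60 and 240 min refed livers lay above all fasted livers, and the 120 min group overlapped them.

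With caged food Gapdh held 208, 214 and 176 at 30 min, below every other library of the 27. It held 313, 321 and 354 at 60 min, 386, 286 and 410 at 120 min and 311, 320 and 326 at 240 min. These 3 later groups overlapped the fasted livers.

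Gapdh was higher than in fasted livers by 0.76 ± 0.17 (1.70-fold) at 30 min and 0.77 ± 0.17 (1.71-fold) at 60 min of refeeding (limma adjusted p = 0.0157 and 0.00297). The 30 min call was lost without fasted replicate 3 (0.63, adjusted p = 0.141) or refed 30 min replicate 2 (0.65, adjusted p = 0.143). Differences of 0.16 and 0.30 at 120 and 240 min were not called. The caged food difference of -0.64 at 30 min was not called against fasted livers (adjusted p = 0.294).

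Between refed and caged food livers the Gapdh difference was 1.41 ± 0.17 at 30 min (2.66-fold, limma adjusted p = 7.10e-05) and 0.69 ± 0.17 at 60 min (adjusted p = 0.00772). It was -0.03 at 120 min and 0.26 at 240 min, neither called. Without the 2 libraries of conflicting labels, the 240 min differences were 0.30 from fasted and 0.25 from caged food livers, neither called. Leaving out the 3 libraries that stood apart gave 1.52 at 30 min (adjusted p = 0.00161). The F test for a difference that varies over time called Gapdh (adjusted p = 0.00139) and none of the other 8 genes, 4 of the 9 having an unadjusted p under 0.05. It called 9.97% of all genes tested.

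Of the genes after Gapdh, Pgk1 makes the first ATP of the pathway and Eno1 the high-energy phosphate used by pyruvate kinase. Pgk1 lay between 394 and 543 normalised counts over all 27 libraries, a ratio of 1.38 from highest to lowest. Its mean refed minus caged food difference was 0.01 (95% interval -0.10 to 0.11). Eno1 ranged from 3544 to 4466, the smallest ratio of the 9 genes (1.26), with a mean difference of 0.00 (95% interval -0.08 to 0.09). Both upper bounds lie below 0.24, the lower bound for Pklr. Eno1 lay below all fasted livers at 30 min of refeeding and at 30 and 240 min of caged food. These differences of -0.19, -0.19 and -0.21 were not called (limma adjusted p = 0.375, 0.682 and 0.994).

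Ldha, which interconverts pyruvate and lactate, held 44023 to 48598 normalised counts in fasted livers. Refed livers held 29525 to 54433 and caged food livers 36854 to 69437. At 30 min of refeeding (35049 to 40350) and 240 min of caged food (38886 to 41539) all lay below all fasted livers. These differences of -0.30 and -0.18 were not called (limma adjusted p = 0.63 and 0.995). The highest library, caged food 60 min replicate 2, was also the one with the most macrophage and leukocyte markers. The mean refed minus caged food difference was -0.22 (95% interval -0.42 to -0.02) and was not called (adjusted p = 0.0815). It passed without refed 240 min replicate 2 (-0.29, adjusted p = 0.0126) or caged food 60 min replicate 3 (-0.26, adjusted p = 0.0396).

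**Figure D4:**
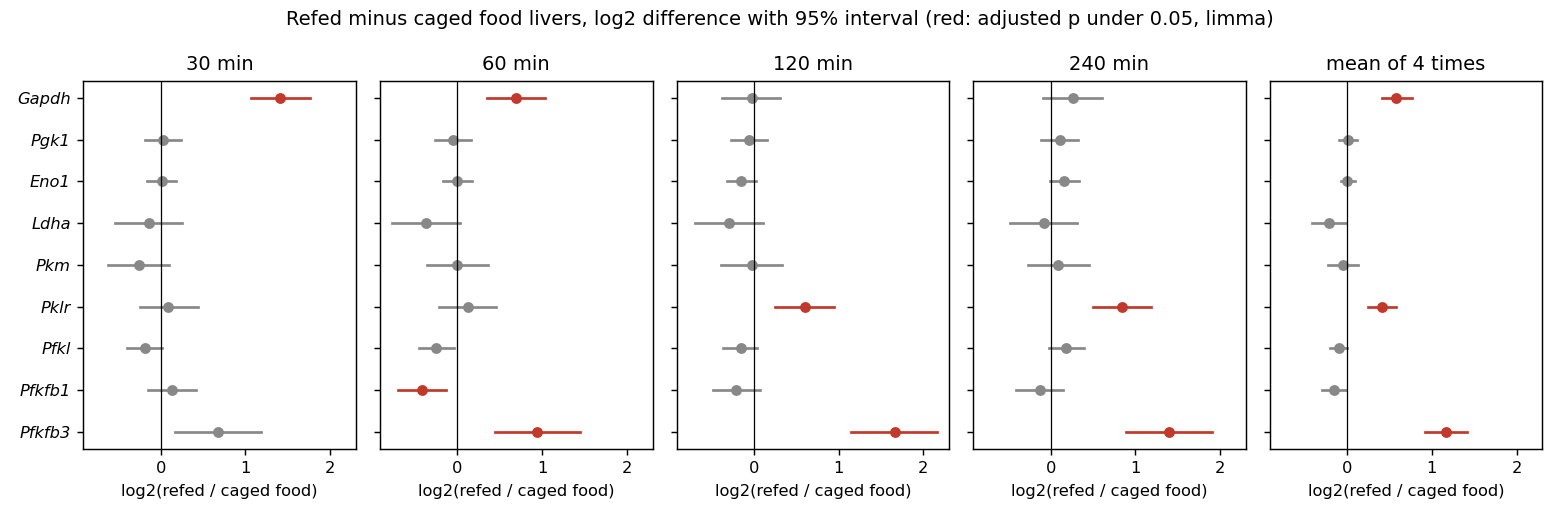
Log2 differences of refed minus caged food livers for the 9 genes at each time and averaged over the 4 times, with 95% intervals, 3 libraries a group; red marks an adjusted p under 0.05. Pfkfb3 is red from 60 min on, Pklr at 120 and 240 min, Gapdh at 30 and 60 min and Pfkfb1, below 0, at 60 min.

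Counted over the 9 genes, refed livers differed from fasted livers in 1, 2, 1 and 2 genes at 30, 60, 120 and 240 min, all higher. Over all genes tested, 1.63%, 11%, 14.1% and 24.3% were called at these times. With caged food 0, 1, 0 and 0 of the 9 were called, beside 0.0126%, 0.22%, 0.0377% and 0% of all genes, and 2, 2, 1 and 1 had an unadjusted p under 0.05. Between refed and caged food livers 1, 3, 2 and 2 were called, beside 0.276%, 10.9%, 11.3% and 27% of all genes. Averaged over times, 3 of 9 were called, beside 31.3%, and among the refed times 2 of 9, beside 24.8%. At 240 min and averaged over times, the share of the 9 that was called lay near that of all genes. Median differences of the 9 genes from fasted livers ran from -0.01 to 0.11 when refed and -0.06 to 0.09 with caged food, and those of all genes from -0.02 to 0.01.

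The rest of the pathway was read from a list of 26 other glycolysis genes, of which 22 were tested. Refed livers had 0, 0, 2 and 5 of these called against fasted livers at 30, 60, 120 and 240 min, of which 0, 0, 2 and 2 were higher, beside 1.63%, 11%, 14.1% and 24.3% of all genes tested. At no time did the called share of the list stand above that of all genes. Without the 2 libraries of conflicting labels, 3 were called at 240 min, beside 20.7% of all genes, and Hk2 (0.74, adjusted p = 0.0569) and Ldhb (-0.55, adjusted p = 0.121) were not among them. At 30 and 60 min, where limma called none, 2 and 1 had an unadjusted p under 0.05. Aldoa, an aldolase, rose by 0.37 and 0.29 at 120 and 240 min, and Hk2, a hexokinase, by 0.78 and 0.73. Ldhb, the other main lactate dehydrogenase subunit, fell by 0.63 at 240 min, where it held 39 to 57 counts. Gpi1, glucose 6-phosphate isomerase, was higher than in caged food livers by 0.24 ± 0.06 at 240 min. None of the 22 genes was called by limma with caged food, and 0, 1, 0 and 2 had an unadjusted p under 0.05 at the 4 times.

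Of 8 genes of the opposing gluconeogenic steps, 0, 2, 4 and 3 were called against fasted livers at the 4 refed times, all lower, beside 1.63%, 11%, 14.1% and 24.3% of all genes. The 3 at 240 min were G6pc, Pck1 and Fbp1. Without the 2 libraries of conflicting labels they were still called lower there, with differences of -3.39, -2.23 and -0.38. With caged food 0 were called at each time by limma, and 1, 1, 0 and 0 had an unadjusted p under 0.05. G6pc, glucose 6-phosphatase, fell at 60 and 120 min, with log2 differences of -2.96 and -3.43 (SE 0.28). Pck1, which makes phosphoenolpyruvate and so opposes pyruvate kinase, fell at the same times, with differences of -1.44 and -3.37 (SE 0.26). Fbp1, which opposes phosphofructokinase, fell by 0.40 at 120 min (SE 0.10). With all libraries kept, Slc37a4, the glucose 6-phosphate carrier, was called at no single time. It was called in the average over times, with a difference of -0.28 from caged food livers. Without the 2 libraries of conflicting labels it was lower than in caged food livers at 240 min (-0.44, limma adjusted p = 0.0334).

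Of 18 genes for the fates of pyruvate and lactate, 0, 2, 1 and 6 were called in refed against fasted livers, all lower but 1 at 240 min, beside the same shares of all genes. At 240 min 4 were called without the 2 libraries of conflicting labels, and neither Pdk4 (-0.52, adjusted p = 0.181) nor the difference of Pdhx from caged food livers (0.29, adjusted p = 0.0971) was called. With caged food 0 were called at each time, and 1, 1, 0 and 0 had an unadjusted p under 0.05. Pdk2, a kinase that shuts pyruvate dehydrogenase, fell at 60, 120 and 240 min, with differences of -0.36, -0.58 and -0.68 (SE 0.10). Pdk4, of the same family, fell at 60 and 240 min, with differences of -0.75 and -0.65. Pdpr, a regulator of pyruvate dehydrogenase phosphatase, fell by 0.40 at 240 min. Pdhx, the component X of the complex, was higher than in caged food livers by 0.31 at 240 min.

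Of 10 transcription factors known to control glycolysis genes, 0, 3, 2 and 3 were called in refed against fasted livers, beside 1.63%, 11%, 14.1% and 24.3% of all genes. Mlx and Foxo1 were the 2 called at 240 min without the 2 libraries of conflicting labels. With caged food 0 were called at each time, and 1, 3, 2 and 0 had an unadjusted p under 0.05. Mlx, the partner of ChREBP on the element found before Pklr, rose by 0.29, 0.40 and 0.53 at 60, 120 and 240 min (SE 0.09). Foxo1, which insulin inactivates, fell by 0.69 at 240 min, and Hnf4a, a hepatocyte factor, rose by 0.54 at 120 min. Myc was higher than in caged food livers by 1.80 ± 0.49 at 60 min, where refed livers held 379 to 968 counts and caged food livers 128 to 234.

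Among 13366 named protein-coding genes, those with a course most like Pfkfb3 over the 8 groups, relative to fasted livers, were Bag3, Tnfsf14 and Snx22. Their root mean square differences from it were 0.279, 0.282 and 0.287 on the log2 scale. Bag3, a chaperone partner, had 0.86, 1.54, 1.30 and 1.30 at the refed times, beside 0.70, 1.54, 1.18 and 1.16 for Pfkfb3. With caged food it had 0.20, 0.54, 0.24 and -0.10, beside 0.03, 0.60, -0.48 and -0.24, so the gap was widest at 120 min. For Pklr they were Ugt2b34, Tfg and Osbp, each at 0.077. Tfg, a factor of the ER exit sites, had -0.00, 0.17, 0.43 and 0.76 at the refed times, beside 0.03, 0.21, 0.40 and 0.78 for Pklr. With caged food it had -0.07, 0.11, 0.02 and -0.04, beside -0.07, 0.09, -0.19 and -0.06. For Gapdh they were Zfp445 (0.232), Rps27a (0.267) and Alkbh1 (0.272), none of which came as near as those of Pklr did.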

How the data were processed

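Messenger RNA of liver was sequenced from a stranded TruSeq library, per the labels' protocols. Reads were aligned to mm10 (GRCm38) with STAR 2.4.0a and counted with featureCounts 1.4.5-p1 (Subread), per the submitters' processing notes. The deposited table holds a score per gene and library: read counts that the authors scaled by library and rounded to whole numbers. Scaling method, read length and strand setting of the counting are not given in the sources used here. The value of 1 read, 0.775 to 1.69, was estimated from gaps among low values. On 40 simulated columns this was off by at most 5.48%.

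The 15932 genes that reached 10 in 3 or more libraries entered the test, as log2(score + 1) with limma 3.58.1 (R 4.3.3), with a mean-variance trend and 9 group means over 27 libraries, and Benjamini-Hochberg adjustment over all genes. Libraries were grouped by title. The limma p-values judge group differences against the spread between libraries within groups, pooled over the 9 groups and moderated across genes. Residuals of libraries that share a replicate number had a mean correlation of -0.00944 (108 pairs), so numbers were not used as pairs. The test was checked on simulated counts of the comparison of 120 min refed with fasted livers: 56.7%, 83.6% and 95.5% of genes changed 1.5, 2 and 4 times were called, with 8 of 15654 called wrongly. The 2 ratios were tested by exact permutation with scipy 1.17.1.

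Lengths and shared stretches used GENCODE M21 (98.8% of identifiers matched). The 9 genes and all lists were chosen with earlier results of these data known. All 9 are named, with at most 4 genes of each pathway list (lowest p over the 9 groups, called ones) and, for the 3 of the 9 with the lowest p, the 3 most alike genes. The results of 1 listed item are not reported here. Tpi1, Hcn3 and marker genes were added after their values were seen. Each library was left out in turn, the doubted ones were left out or regrouped together, and the fit was repeated after quantile normalization, with 5 in place of 1 as pseudocount, without the filter, with a replicate block and on the compared groups alone. The design text speaks of 60 samples, and those beyond 27 were not analysed here.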

Additional observations from a re-analysis of the deposited data

Results flagged for a closer look

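Gapdh in refed relative to caged food livers changed over the 4 times, by a test of that change itself (limma F test, adjusted p = 0.00139). It was 1.41, 0.69, -0.03 and 0.26 on the log2 scale at 30, 60, 120 and 240 min. At 30 min refed livers were higher than fasted livers (0.76) and caged food livers lower (-0.64, not called). The adjusted p was 0.00388 without the 2 libraries of conflicting labels and 0.00587 without the 3 libraries that stood apart. Of the stretches in Gapdh mRNAs, 58.4% are shared with other genes, and the part of these copies in the result was not tested.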

How the results depend on the processing

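Of 2592 values of single genes under an alternative, 2531 kept their status as called or not called. A call was lost in 38 and gained in 23, and 0 reversed while called. The 2531 include results called in neither setting. The 38 losses could fall only on results called in the main fit, which were the smaller part. In 107 the sign changed, but neither value was called. Numbers of genes called, of 9, changed as follows. Pfkfb1 at 60 min of caged food against fasted livers, the only gene called, was lost (0 called) under quantile normalization, no filter, the replicate block, only the groups compared and without the 3 libraries that stood apart. The replicate block changed no other count by over 1.5 times, though it took Pfkfb1 in refed against caged food livers at 60 min to an adjusted p of 0.0565. That call was also lost with no filter (0.0777), only the groups compared (0.256) and without the 3 libraries that stood apart (0.0776). With only the groups compared, 2 genes were called in refed against fasted livers at 30 min and 2 at 120 min (Pfkfb3 at 0.0415 and Pklr at 0.00984 added), and 1 in refed against caged food livers at 120 min. Without the 2 libraries of conflicting labels 1 gene was called among the refed times. Grouped by treatment label, 0 were called at 240 min of refeeding against fasted or caged food livers, 1 among the refed times, and the Pkm to Pklr ratio was -0.35. Without the 3 libraries that stood apart 0 were called among the caged food times.

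Leaving out 1 library gave 0 to 1 gene called in refed against fasted livers at 30 min, 0 to 0 with caged food at 60 min, 1 to 2 in refed against caged food livers at 120 min, 3 to 5 over the average of times, 1 to 3 among the refed times, 1 to 3 among the caged food times and 1 to 2 for the change over time. The counts of 5 and 2 added Pfkfb1, Pfkl (without refed 60 min replicate 2) and Pklr (without refed 60 min replicate 2, refed 240 min replicate 2, caged food 60 min replicate 3 or caged food 120 min replicate 3). The ratio of Pfkfb3 to Pfkfb1 stayed between 1.26 and 1.4. Depth and rounding limit genes near the filter of 10 counts most, and the lowest value of the 9 genes in any library was 176 counts.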
